A study of Rattus norvegicus with 30 samples.

Results

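The 10 genes described here encode the core machinery that makes and breaks down polyamines: Odc1, Amd1, Srm, Sms, Sat1, Sat2, Smox, Oaz1, Oaz2 and Azin1. They were taken by symbol from a table of 17455 genes, in which all 10 have a row. Odc1 was selected because its counts rise in the alzheimer genotype, so its genotype values are given as a description with no test. The other 9 genes were added for their place in the pathway, and all 10 passed the filter on low counts that left 12547 genes for testing.

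Messenger RNA was counted in 30 polyA libraries of rat dorsal hippocampus. The labelled genotypes are alzheimer, which the series describes as TgF344-AD rats, and wildtype. The transgenes of TgF344-AD include mutant human APP under the mouse prion promoter. Each genotype was fed chow or a western diet, and each combination was sampled in both sexes. The 4 male groups (wildtype on chow, alzheimer on chow, wildtype on western and alzheimer on western) had 4 libraries each. The female wildtype and female alzheimer groups had 4 libraries each on chow and 3 each on western. Libraries came from 2 labelled cohorts of 14 and 16, and every group drew from both. The sources used here give neither the age of the rats nor the composition of the diets.

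Polyamines (putrescine, spermidine and spermine) are small positively charged metabolites that bind nucleic acids. In the brain they also modulate glutamate receptors and inwardly rectifying potassium channels. Odc1, ornithine decarboxylase, makes putrescine and is a classical control point of the pathway. Amd1 supplies the aminopropyl donor, and the synthases Srm and Sms use it to make spermidine and spermine. Sat1 acetylates spermidine and spermine for breakdown or export, and Smox oxidises spermine directly. Antizymes such as Oaz1 and Oaz2 bind the Odc1 protein and send it to the proteasome. Azin1, an inactive relative of Odc1, binds the antizymes and frees it. Much of this control acts on translation and protein stability, which messenger RNA counts do not measure.

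Odc1, the first enzyme of synthesis, was selected on genotype. Of the 9 members tested on genotype, only Sat1, the rate-limiting enzyme of breakdown, passed, at the edge of the threshold. Among all tested genes 8.03% passed, so 1 of 9 is near that share. The 250 bases before their annotated starts show how unlike their proximal promoters are in base composition. The sequences are from RefSeq on GRCr8. Odc1 lies on the plus strand at chr6:46058415-46058664 and Sat1 on the plus strand at chrX:44007839-44008088. Capitals mark TGACG, the core of a cAMP response element half-site, on either strand (CGTCA where it lies on the minus strand), and TATAA.
Odc1: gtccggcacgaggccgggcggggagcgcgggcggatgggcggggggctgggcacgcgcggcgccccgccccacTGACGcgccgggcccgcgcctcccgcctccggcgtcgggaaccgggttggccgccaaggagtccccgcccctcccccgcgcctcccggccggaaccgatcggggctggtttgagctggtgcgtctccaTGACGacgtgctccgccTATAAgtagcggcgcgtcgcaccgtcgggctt
Sat1: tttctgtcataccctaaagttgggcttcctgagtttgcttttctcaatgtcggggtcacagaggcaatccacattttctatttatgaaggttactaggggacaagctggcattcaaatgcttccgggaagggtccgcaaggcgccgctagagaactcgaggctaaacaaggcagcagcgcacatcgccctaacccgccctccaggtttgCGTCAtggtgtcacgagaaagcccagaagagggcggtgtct

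The Odc1 window is 78% G and C and the Sat1 window 52.8%, against a median of 51.2% over 33469 promoters of this length. TGACG begins 177 and 49 bases before the Odc1 start, and TATAA begins 32 bases before it. In Sat1 a single match to TGACG lies on the minus strand, its leftmost base 41 bases before the start. Of all 33469 promoters, 18.2% hold TGACG on either strand, and so do 5 of the 9 polyamine genes in the table (Odc1, Oaz1, Amd1, Sms and Sat1). GGGCGG, the GC box, occurs in 30.5% of all promoters and in 7 of the 9. The windows of the 9 hold from 52.8% (Sat1) to 78.4% (Srm) G and C, all above the median of all promoters. The motif shares were not adjusted for base composition. TATAA occurs in 24% of all promoters and in Odc1, Oaz1 and Amd1. CACGTG, the E-box bound by MYC and MAX, occurs in 5.59% of all promoters and in Srm and Oaz1. These letters are absent from the Odc1 window, and sequence outside the 250 bases was not searched. Motifs were searched on both strands, none of the 4 motifs holds another, and a match describes letters rather than a bound site.

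Depth per library was between 13.9 and 31.4 M counts (M for mega), and the median was 17.8 M. App, the amyloid precursor gene, averaged 1672 ± 52.7 CPM over the wildtype libraries and 3294 ± 76.3 over the alzheimer libraries (SD, n = 15 each). The genotypes did not overlap. The App counts could include reads of the human APP transgene, and that share was not measured. CPM is counts per M after adjustment of library sizes by the trimmed mean of M values. Fold changes are log2 values ± standard error from edgeR's quasi-likelihood fit over 8 groups and cohort. The word called is kept for genes with an adjusted p (Benjamini-Hochberg, over 12547 genes) below 0.05. Since nothing states that each library is a separate animal, p-values measure the spread between these libraries. In bulk tissue, fewer cells of a type and less RNA per cell cannot be told apart.

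Odc1 was higher in alzheimer than in wildtype in every sex and diet. In alzheimer libraries it ran from 91.1 to 106.8 CPM with a median of 98.4, and in wildtype libraries from 71.7 to 85.3 with a median of 79.8. The lowest alzheimer library lay 5.80 CPM above the highest wildtype library, so all 15 alzheimer libraries were above all 15 wildtype libraries. Means were 98.7 ± 4.10 and 78.7 ± 4.68 CPM (SD, n = 15 each), a log2 fold change of 0.33 ± 0.025 or 1.26-fold. These values chose the gene, and they are given with no test.

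In males on chow, Odc1 read 94.1, 95.3, 97.5 and 100.7 CPM in alzheimer against 72.3, 81.8, 82.6 and 85.3 in wildtype. In males on western it read 98.4, 101.2, 103.5 and 106.8 CPM against 77.6, 79.8, 81.7 and 83.0. Within each of these pairs of groups the lowest alzheimer value exceeded the highest wildtype value. In females on chow, Odc1 read 94.1, 96.6, 99.9 and 100.9 CPM in alzheimer against 74.0, 76.8, 81.5 and 84.8 in wildtype. In females on western it read 91.1, 98.4 and 102.4 CPM against 71.7, 73.4 and 74.3. The female pairs did not overlap either, and female wildtype on western was the tightest of the 8 groups, with an SD of 1.30 CPM.

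The fitted genotype difference in Odc1 was 0.27 ± 0.049 in males on chow, 0.35 ± 0.048 in males on western, 0.30 ± 0.048 in females on chow and 0.41 ± 0.056 in females on western. It was 0.33 ± 0.044 in cohort 1 alone and 0.32 ± 0.030 in cohort 2 alone. Whether the size differed between diets or sexes is a separate comparison that did not choose the gene. The genotype-by-diet term was 0.094 ± 0.050 (adjusted p = 1.0) and the genotype-by-sex term 0.051 ± 0.050 (adjusted p = 0.999). Neither passed, with 0% of all genes called for genotype by diet and 0% for genotype by sex. The Odc1 genotype-by-diet term was 0.0090 in cohort 1 alone and 0.16 in cohort 2 alone.

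**Figure D1:**
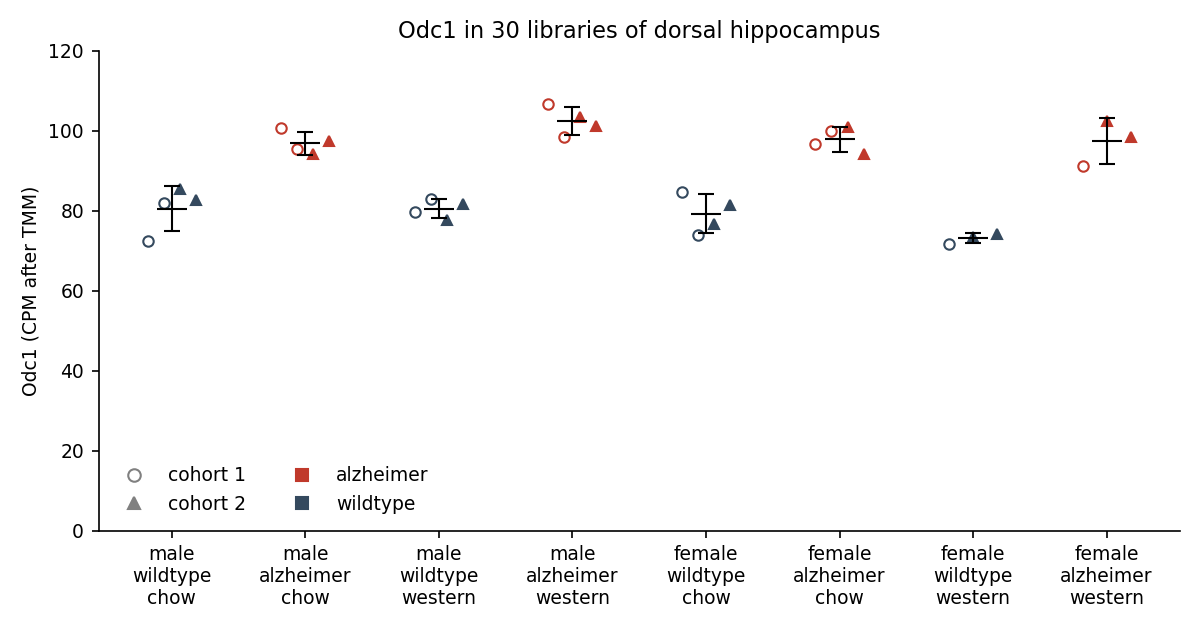
Odc1 in each of the 30 libraries, with counts per M after TMM on the vertical axis and the 8 groups along the horizontal axis. Red marks alzheimer and dark blue wildtype, open circles cohort 1 and filled triangles cohort 2, and bars give the mean ± SD. Every red point, from 91.1 CPM upward, lies above every dark blue point, the highest of which is 85.3 CPM.

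Ordered by mean, the 4 alzheimer groups ran from 102.4 ± 3.55 CPM in males on western through 97.9 ± 3.12 in females on chow and 97.3 ± 5.74 in females on western to 96.9 ± 2.87 in males on chow (SD). The last 3 differed by less than their spread. Wildtype groups followed at 80.5 ± 5.68 in males on chow, 80.5 ± 2.33 in males on western, 79.3 ± 4.81 in females on chow and 73.1 ± 1.30 in females on western. The first 3 wildtype means also lay within 1 SD of each other.

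Of the 9 polyamine genes that were not selected on genotype, 1 was called, Sat1, which was lower in alzheimer. Across all tested genes 8.03% were called for genotype, so this count is near the background. The median log2 fold change of the 9 was −0.044, against 0.0020 over all tested genes, and 4 of the 9 had an unadjusted p under 0.05 against 22.3% of all genes. No other member rose or fell by the test.

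The synthesis enzymes downstream of Odc1 did not pass. Amd1 was at 207 ± 10.9 CPM in alzheimer and 213 ± 7.48 in wildtype (−0.043 ± 0.022, adjusted p = 0.241). In females on chow its alzheimer libraries read 190.6, 193.1, 195.7 and 196.7 CPM against 200.2, 207.5, 208.7 and 221.0 in wildtype. Those groups did not overlap, as was so in at least 1 combination of sex and diet for every member but Srm. How many of all genes show such a gap was not measured, so it is not read as a result about the members. The Amd1 difference in females on chow, −0.11 ± 0.041, did not pass (adjusted p = 0.333). Sms, spermine synthase, was at 54.5 ± 3.95 CPM in alzheimer and 52.9 ± 2.82 in wildtype (0.046 ± 0.031, adjusted p = 0.421).

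Srm, spermidine synthase, was barely counted, with 11 to 55 counts per library. It stood at 1.34 ± 0.478 CPM in alzheimer and 1.69 ± 0.639 in wildtype, a difference of −0.30 ± 0.193 (adjusted p = 0.376). Its variation between libraries of a group, as the biological coefficient of variation, was 30.6%, against 3.29% to 5.90% in the other 9 genes. The interval of its genotype difference, from −0.70 to 0.09, includes a loss larger in size than the Odc1 gain, so these libraries do not resolve a change of that order.

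**Figure D2:**
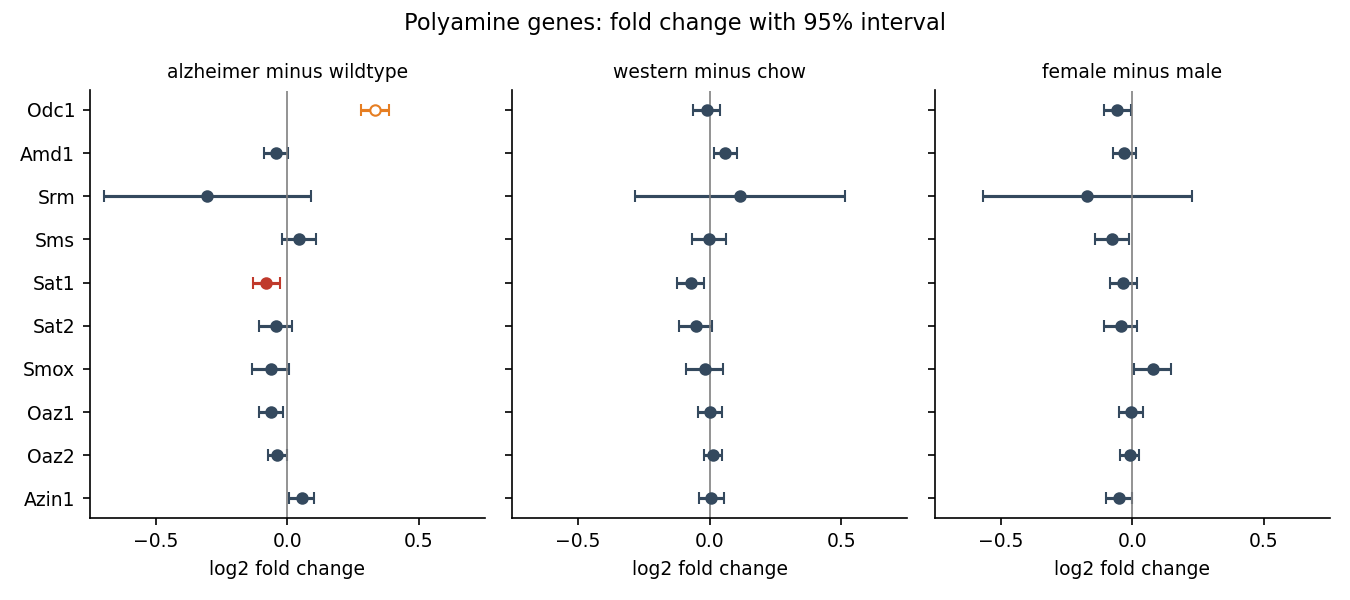
Log2 fold changes of the 10 genes for genotype, diet and sex, with points at the fitted value and bars for the 95% interval. The open orange point is Odc1 for genotype, the contrast on which it was selected, and the red point is Sat1, the single called value at −0.080. The Srm bars are the widest in each panel.

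Among the breakdown enzymes, Sat1 fell by 0.080 ± 0.025 on the log2 scale (0.946-fold, adjusted p = 0.0443). Its alzheimer libraries ran from 72.6 to 93.4 CPM with a median of 86.9, and its wildtype libraries from 82.2 to 96.7 with a median of 87.9. The genotypes overlapped widely: 6 of 15 alzheimer libraries were below the lowest wildtype library, and 12 of 15 were below the wildtype mean of their own sex and diet. The call is at the edge of the threshold. It was lost without any 1 of 19 of the 30 libraries (replicates 1, 2, 3, 4, 5, 9, 10, 11, 12, 14, 15, 16, 18, 19, 22, 23, 25, 27 and 29, numbered as in the sample titles), with adjusted p from 0.0530 to 0.0944 and differences from −0.081 to −0.071.

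The lowest Sat1 values were those of alzheimer females on western. They read 72.6, 75.4 and 81.9 CPM, against 86.0, 87.9 and 88.8 in wildtype females on western, with no overlap. Every member but Srm had at least 1 of the 4 combinations of sex and diet without overlap, so such a gap is not particular to Sat1. The share of all genes with such a gap was not measured. Alzheimer females on chow read 86.9, 87.6, 87.7 and 89.3 CPM against 87.4, 87.7, 88.9 and 91.6 in wildtype, and these groups overlapped. The genotype difference was −0.19 ± 0.056 in females on western (adjusted p = 0.151), −0.016 ± 0.048 in females on chow, −0.11 ± 0.049 in males on chow and −0.0051 ± 0.048 in males on western. None passed the threshold, and the 3-way term for genotype, diet and sex, −0.28 ± 0.10, had an adjusted p of 0.932, with 0% of all genes called.

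Sat2, a relative of Sat1 that acts mainly on another substrate, thialysine, was at 35.0 ± 1.81 CPM in alzheimer and 36.4 ± 3.03 in wildtype (−0.044 ± 0.031, adjusted p = 0.430). Its pattern over sex and diet was unlike that of Sat1. In males on western the alzheimer libraries read 31.6, 32.4, 33.4 and 37.0 CPM against 37.1, 37.2, 40.2 and 42.0 in wildtype (−0.22 ± 0.059, adjusted p = 0.0653). In females on western they read 34.4, 34.5 and 35.9 CPM against 31.2, 31.3 and 34.4 (0.11 ± 0.068). The alzheimer values were thus below in males and above in females on the same diet, and the 3-way term of 0.43 ± 0.122 did not pass the adjustment (adjusted p = 0.932). Smox was at 53.4 ± 3.55 CPM in alzheimer and 55.6 ± 3.92 in wildtype (−0.062 ± 0.034, adjusted p = 0.293).

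Neither antizyme passed for genotype, and nor did the inhibitor. Oaz1 was at 482 ± 22.4 CPM in alzheimer and 502 ± 20.8 in wildtype (−0.060 ± 0.022, adjusted p = 0.0951). It lay below its own wildtype mean in 13 of 15 alzheimer libraries. A single library, alzheimer male on chow replicate 8, was the highest of all 30 at 537.6 CPM. Without it the Oaz1 difference was −0.074 and passed (adjusted p = 0.0114), while genotype calls over all genes went from 1007 to 1270. Under the remaining 39 of 40 alternatives Oaz1 did not pass. Oaz2 was at 248 ± 6.75 CPM in alzheimer and 254 ± 6.99 in wildtype (−0.037 ± 0.017, adjusted p = 0.198), also lower in 13 of 15. Azin1, which opposes both, was at 164 ± 8.70 CPM in alzheimer and 157 ± 8.36 in wildtype (0.055 ± 0.024, adjusted p = 0.155). It was higher in 11 of 15. Such counts were not particular to the antizymes and their inhibitor. Of the remaining members that did not pass, Smox was lower in 13 of 15 and Sms higher in 11 of 15. Amd1 and Srm were each lower in 11 of 15, and Sat2 in 9 of 15. The share of all genes with such counts was not measured.

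**Figure D3:**
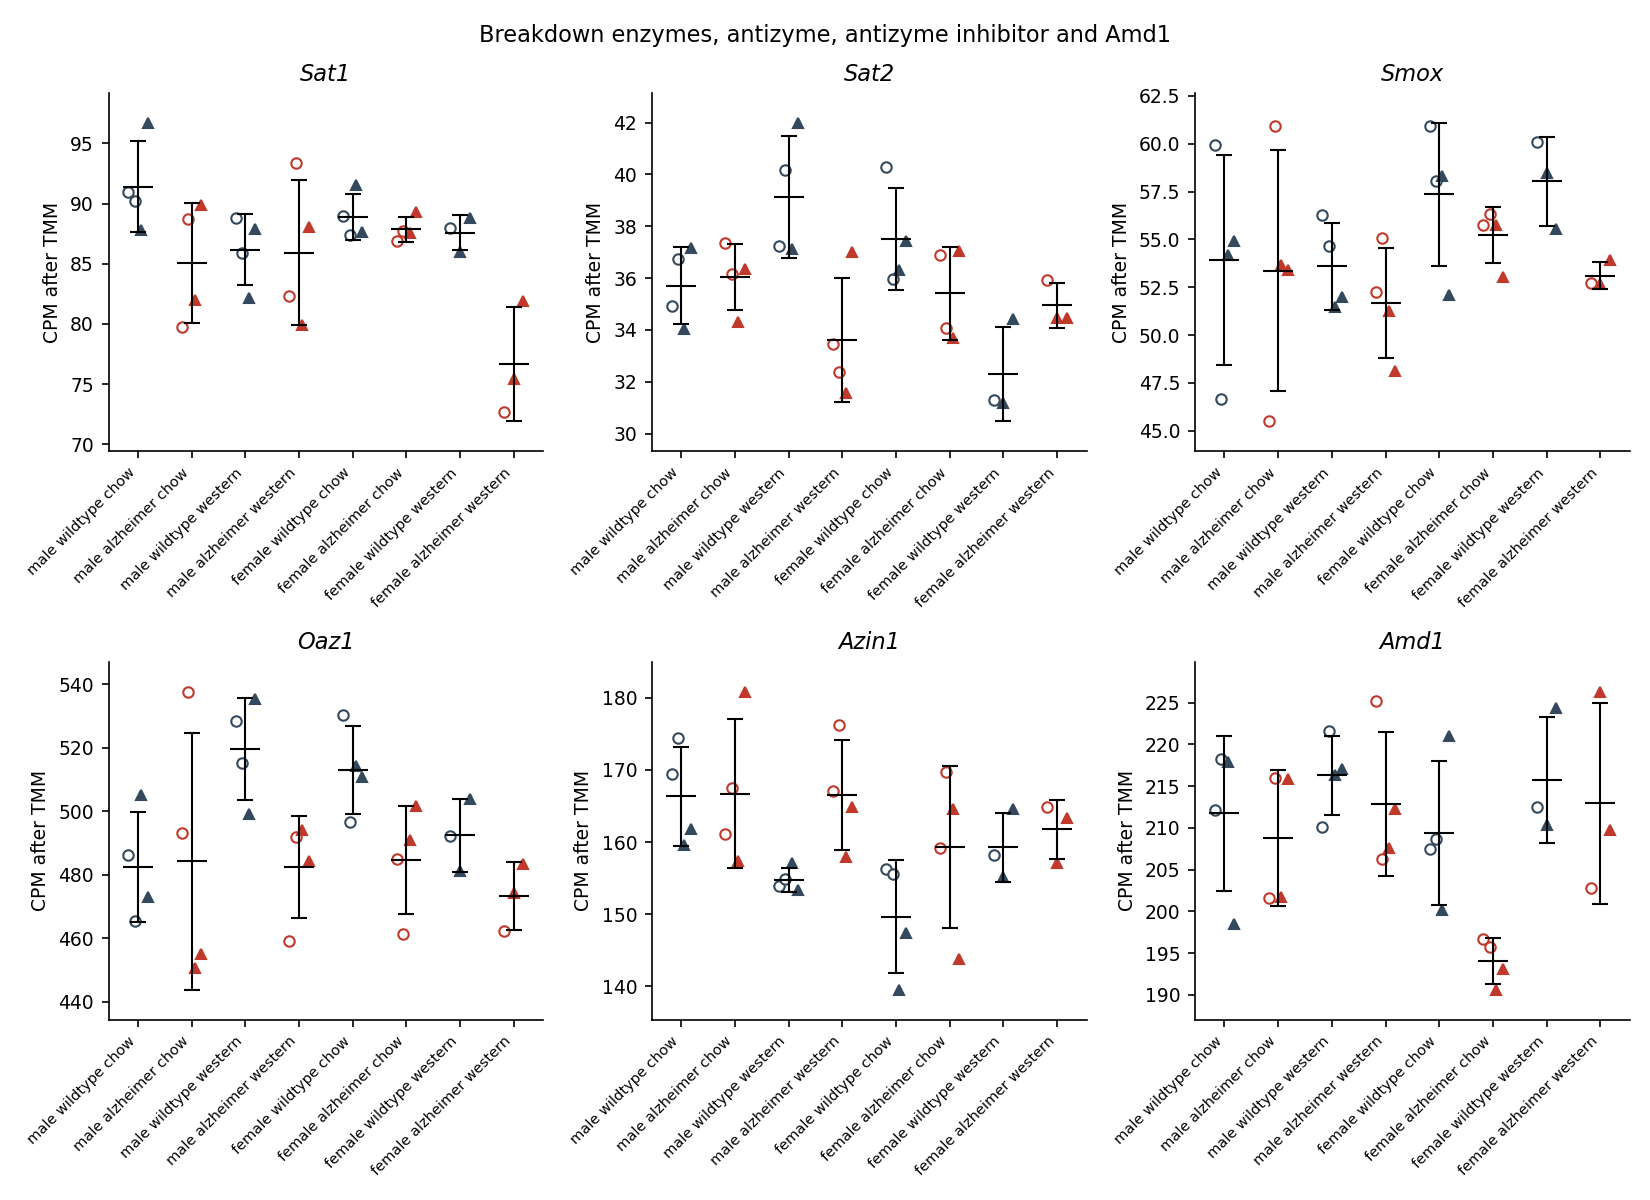
Sat1, Sat2, Smox, Oaz1, Azin1 and Amd1 by library, in counts per M after TMM, with a separate vertical scale in each panel that does not start at 0. Red marks alzheimer and dark blue wildtype, open circles cohort 1 and filled triangles cohort 2, and bars give the mean ± SD over the 3 or 4 libraries of a group. The Sat1 panel shows alzheimer females on western at 72.6 to 81.9 CPM, and 2 of these 3 libraries are the lowest of the panel.

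Ratios within a library compare the enzyme with its regulators without the scaling between libraries. They are counts of one gene per 100 counts of another, not corrected for gene length, so only their differences between libraries are read. Odc1 stood at 14.6 to 17.6 counts per 100 of Oaz1 in wildtype (median 15.3) and at 17.7 to 23.3 in alzheimer (median 20.6). Per 100 of Oaz2 it stood at 28.7 to 33.3 in wildtype (median 30.5) and 37.5 to 42.1 in alzheimer (median 39.8). All 15 alzheimer libraries exceeded the highest wildtype library on both ratios, and 14 of 15 did so per 100 of Azin1. As Odc1 is in the numerator, these are descriptions with no test.

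The balance of inhibitor to antizyme does not include Odc1, but these ratios were chosen after the member values had been seen. They set a member seen higher in alzheimer over members seen lower, on the same contrast. The adjustment over both ratios does not account for that choice. The p-values are thus a description and cannot show that the balance shifted. Azin1 stood at 54.0 to 70.0 counts per 100 of Oaz2 in wildtype (median 61.9) and 57.3 to 75.1 in alzheimer (median 66.2). The genotypes overlapped, and the log2 difference was 0.093. A two-sided permutation of genotype labels within sex, diet and cohort with 100000 resamples gave p = 0.00102 (0.00204 adjusted over both ratios). Within cohorts the permutation p was 0.0419 in cohort 1 and 0.0123 in cohort 2. Azin1 per 100 of Oaz1 had a median of 31.5 in wildtype and 33.8 in alzheimer, a log2 difference of 0.12 (permutation p = 0.00545, adjusted p = 0.00545). That difference was 0.11 in cohort 1 alone (permutation p = 0.119) and 0.13 in cohort 2 alone (permutation p = 0.00313).

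Within single strata the members gave few further signals. Genotype was called for 0.901% of all genes on chow, 3.17% on western, 1.25% in males and 2.57% in females, and for none of the 9 testable members in any of these. The smallest adjusted p among them was 0.134, for Sat1 in females (−0.10 ± 0.037).

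**Figure D4:**
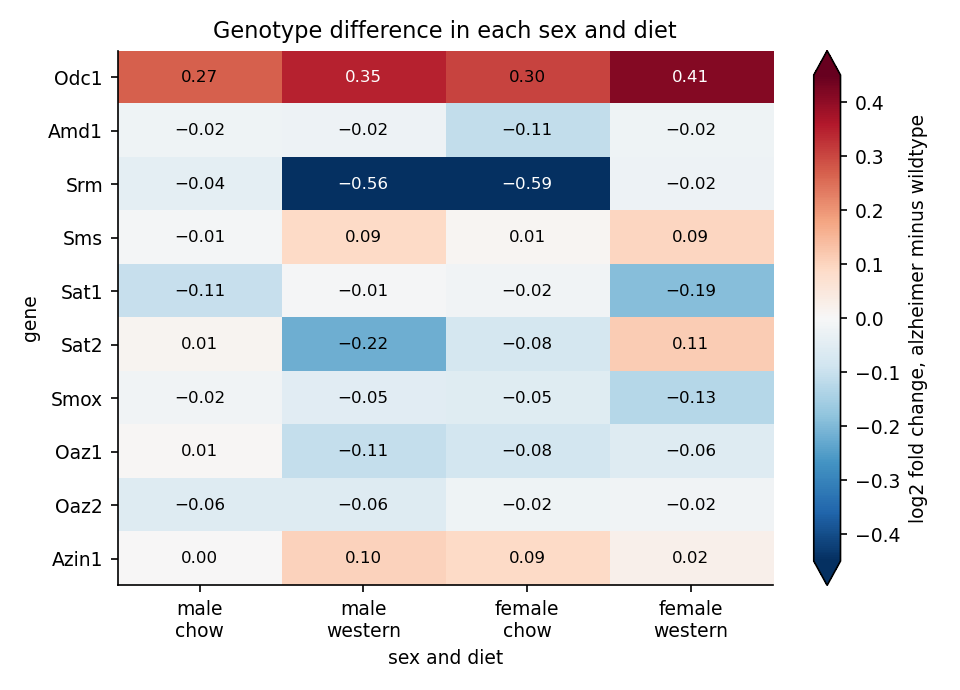
Fitted log2 difference, alzheimer minus wildtype, for each gene in each sex and diet, printed in the cells and coloured from blue (lower) to red (higher). The Odc1 row runs from 0.27 to 0.41. Srm at −0.56 and −0.59 lies beyond the colour scale, and Sat1 and Sat2 take opposite signs in females on western.

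The western diet changed none of the 10 genes by the test. Across the series 0.00797% of all genes were called for diet, a single gene. Odc1 differed by −0.012 ± 0.025 between diets (adjusted p = 0.981), with an interval from −0.06 to 0.04. The smallest p-values belonged to Sat1 (−0.073 ± 0.025, adjusted p = 0.822) and Amd1 (0.059 ± 0.022, adjusted p = 0.822). Without Srm, no member's diet difference exceeded 0.073 in size. Diet was called for 0% of all genes within wildtype, 0% within alzheimer, 0.128% in males and 0.183% in females, and for no member in any of them. In females the differences with an unadjusted p under 0.05 were Sat1 at −0.11 ± 0.037, Sat2 at −0.12 ± 0.045 and Amd1 at 0.089 ± 0.032, with adjusted p from 0.293 to 0.378.

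Between females and males no member was called either, while 0.837% of all genes were. Sms and Sat1 are both on the X chromosome in the RefSeq table. Sms was 0.078 ± 0.031 lower in females on the log2 scale without passing the test (adjusted p = 0.225), and Sat1 differed by −0.035 ± 0.025. Smox differed by 0.078 ± 0.034 (adjusted p = 0.277) and Odc1 by −0.057 ± 0.025 (adjusted p = 0.275). Diet by sex was called for 1.23% of all genes and for no member. Its smallest p-values were for Azin1 (0.12 ± 0.048, adjusted p = 0.234), Oaz1 (−0.097 ± 0.045), Sat2 (−0.13 ± 0.062) and Odc1 (−0.11 ± 0.051, adjusted p = 0.326). In the first of these the western diet went with more, and in the other 3 with less, in females relative to males. Between cohorts 0.0877% of all genes and no member were called, and Azin1 had the smallest p (−0.050 ± 0.024, adjusted p = 0.382).

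Within groups the members did not vary as a block. After removal of group and cohort means, the highest correlation over the 30 libraries was 0.41 between Sat1 and Smox and the lowest −0.57 between Sms and Smox. That of Odc1 with Sat1 was −0.11 and with Oaz1 0.12. All pairs share library depth and dissection, and these values are given as a description.

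Genes that supply or use polyamines were taken from lists by function. Their counts are read against the 8.03% of all tested genes called for genotype, and with 4 to 12 tested genes a list no count is particular to its list. Of 8 tested genes of arginine and ornithine supply, 1 rose and 1 fell with genotype. Nos1, the neuronal synthase that makes nitric oxide from arginine, rose from 20.1 ± 3.68 CPM in wildtype to 29 ± 5.17 in alzheimer (0.53 ± 0.075, adjusted p = 1.08e-05). Slc7a1, a transporter that brings arginine into cells, fell from 85.4 ± 5.89 to 78.9 ± 4.05 CPM (−0.11 ± 0.031, adjusted p = 0.0164). Neither arginase passed: Arg1 differed by 0.14 ± 0.063 (adjusted p = 0.158) and Arg2 by −0.012 ± 0.041. Oat, ornithine aminotransferase, did not pass either (−0.011 ± 0.019).

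Of 8 tested transport genes, Atp13a3, a membrane ATPase that carries polyamines, rose from 50.5 ± 4.91 to 54.6 ± 1.81 CPM (0.12 ± 0.034, adjusted p = 0.0272). Its genotype difference was 0.19 ± 0.050 on western (adjusted p = 0.0270), where 3.17% of all genes were called, and 0.044 ± 0.046 on chow (adjusted p = 0.792). The difference between the diets, 0.15 ± 0.068, did not pass (adjusted p = 1.0). Its lysosomal relative Atp13a2 differed by −0.043 ± 0.020 (adjusted p = 0.197) and Atp13a5 by −0.20 ± 0.067 (adjusted p = 0.0565). The list of remaining breakdown and inhibitor genes, which also holds agmatinase (Agmat), a gene of neither kind, had 0 of 4 called. Among them were Paox, the acetylpolyamine oxidase (0.069 ± 0.036, adjusted p = 0.267), and Azin2, a second antizyme inhibitor (−0.084 ± 0.040, adjusted p = 0.211). Salvage of methylthioadenosine, the by-product of the synthases, and the methionine cycle had 0 of 10 called. Mat2a, which makes S-adenosylmethionine, had the smallest p (0.076 ± 0.028, adjusted p = 0.0959). Hypusine formation, which uses spermidine to modify the translation factor eIF5A, had 0 of 4 called, with Eif5a at −0.037 ± 0.021 and its relative Eif5a2 at 0.048 ± 0.026 (adjusted p = 0.266).

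Odc1 is a textbook target of MYC. In the MYC network 1 of 9 tested genes was called, a share near the 8.03% of all genes: Mycl rose from 20.9 ± 2.68 to 23.3 ± 2.59 CPM (0.17 ± 0.053, adjusted p = 0.0400). Myc itself differed by 0.0088 ± 0.078 and Max by −0.031 ± 0.033. Of 12 activity-induced genes 1 was called, also near that share: Fosl2, a subunit of the AP-1 factor, rose from 9.72 ± 1.28 to 11.9 ± 1.32 CPM (0.29 ± 0.065, adjusted p = 0.0044). The classical members of that list did not pass, with Fos at 0.031 ± 0.18, Arc at −0.056 ± 0.146 and Egr1 at −0.067 ± 0.089. No gene of these 7 lists was called for diet, for sex or between cohorts. For diet by sex a single gene of them was called, Ier2, an immediate early gene (−0.67 ± 0.173, adjusted p = 0.0414), against 1.23% of all genes.

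**Figure D5:**
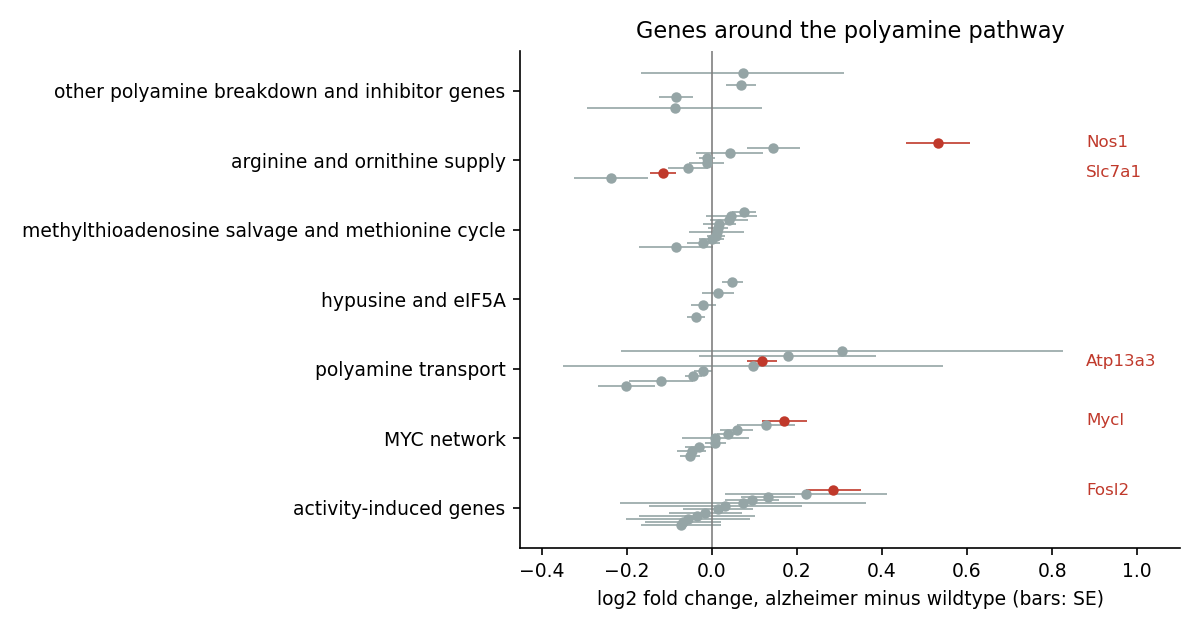
Log2 difference, alzheimer minus wildtype, for each tested gene of 7 lists around the polyamine pathway, with bars for the standard error. Red points are called and named, and grey points are not. Nos1 at 0.53 is the highest called value and Slc7a1 at −0.11 is the one called below 0.

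Across the 30 libraries, the genes whose log2 CPM was most like that of Odc1 among 11061 genes were App (Pearson r = 0.922), Sh3glb2 (0.921), Tspyl2 (0.913), Acly (0.906) and Fdft1 (0.899). Spearman's rho for them was 0.820, 0.804, 0.830, 0.807 and 0.810. All 5 were higher in alzheimer, by 0.98, 1.42, 0.33, 0.17 and 0.36 on the log2 scale. They share with Odc1 the separation of the genotypes on which it was selected, so the likeness is a description. For Sat1 the closest were Cdh15 (r = 0.686), Atp5md (0.662), Akr1c19 (0.645), Arfip2 (0.635) and Rhebl1 (0.634), lower values than those for Odc1. In RefSeq gene order, the 5 tested genes on each side of Odc1 on chromosome 6 held 0 of 10 called for genotype. Hpcal1, the next gene, had the smallest p (−0.14 ± 0.046, adjusted p = 0.0618). These neighbours were examined after the Odc1 values had been seen.

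Markers of several cell types moved with genotype and are given for their whole lists, against 8.03% of all genes called. Microglial markers were lower for 3 of 7, with a summed level of 358 to 458 CPM in wildtype (median 410) and 341 to 416 in alzheimer (median 391). Endothelial markers were lower for 3 of 6 (median sum 362 against 342 CPM), CA1 pyramidal markers for 2 of 4 (1372 against 1188) and pericyte markers for 2 of 5 (117 against 107). In every list the summed levels of the genotypes overlapped. For CA1 they ran from 1102 to 1504 CPM in wildtype and from 1019 to 1570 in alzheimer. Astrocyte markers were higher for 1 and lower for 2 of 7 (median sum 4819 CPM in wildtype against 4653 in alzheimer). Excitatory neuron markers were higher for 1 of 6 (4987 against 4958). Of dentate granule cell markers 1 of 3 was called, C1ql2, which was lower (−0.27 ± 0.043). The median log2 fold change of the 3 was 0.12, in the other direction, while the median sum was 373 CPM in wildtype against 324 in alzheimer. Oligodendrocyte markers were lower for 1 of 7 (12391 against 11040) and interneuron markers for 1 of 6 (527 against 542). No marker of CA3, oligodendrocyte precursors, choroid plexus, ependyma or blood was called. The part of these cell types in the Odc1 and Sat1 values was not tested. No marker of the neuronal or glial lists stood at 0 in all libraries. Choroid plexus markers were low in most libraries, with summed levels highest in replicates 30 (64.7 CPM), 20 (39.0 CPM) and 11 (21.5 CPM). Without those 3 the Odc1 difference was 0.35 ± 0.027, and the Sat1 difference was −0.078 with its call lost (adjusted p = 0.0737).

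RefSeq lists 10 pseudogenes of Odc1 on GRCr8, 3 of Amd1, and 2 each of Sms and Oaz1, and none of these has a row of its own in the count table. The sources used here state neither how reads shared with such copies were counted nor whether strand was used. The values of these 4 genes could include such reads, and that share was not measured.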

How the data were processed

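Messenger RNA from snap-frozen dorsal hippocampus was prepared as polyA libraries, per the labels. The authors deposited raw counts per gene symbol, unscaled, for 30 libraries. Reads were trimmed with cutadapt and aligned with STAR 2.7.0a, per the submitters' processing notes. No counting tool, strand setting, build or annotation is given in the sources used here.

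Counts were fitted in edgeR 4.0.16 (R 4.3.3) with 8 group coefficients and cohort, after filterByExpr (minimum count 10, minimum total 15) and TMM scaling, and tested by the quasi-likelihood F test with Benjamini-Hochberg adjustment over 12547 genes. Genotype, diet and sex contrasts weight the levels of the remaining factors equally. CPM is computed from these counts. Correlations used log2 CPM with a prior count of 2. The fit was also run on counts simulated from its own dispersions, with genotype changes but no diet, sex or cohort effects. That run cannot show how well the model suits these data. The 10 members and all lists were chosen with earlier results of these data known. All members are named, with called list genes, the gene of smallest p in a list, well-known members of it and the 5 genes most like Odc1 and Sat1; the well-known members were picked after their values were seen. List genes without a row or below the filter on low counts were not tested, and some items are not reported here. Promoters matched 9 members by symbol; Azin1 was not analysed there.

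Alternatives were median-of-ratios factors, no filter on low counts, 1 CPM in 8 libraries, DESeq2 1.42.0, limma-voom 3.58.1 with quality weights, no cohort term, either cohort alone, log2 library size as covariate, leaving out the 3 libraries highest in choroid plexus markers, and leaving out each library. Leaving libraries out of the 2 ratio tests was added after seeing the data.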

Additional observations from a re-analysis of the deposited data

How the results depend on the processing

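The count of members called for genotype was 1 as reported. It ran from 0 to 2 over leaving out each library, where calls over all genes ran from 817 to 1270. It was 0 without the filter on low counts, with limma-voom, in cohort 1 alone, in cohort 2 alone, with log2 library size as covariate and without the 3 libraries highest in choroid plexus markers. Genotype calls over all genes in these settings were 1061, 1139, 72, 573, 867 and 834 in that order, against 1007 in the main fit. In each setting with a count of 0 the lost call was Sat1, whose adjusted p was 0.0516, 0.0563, 0.403, 0.276, 0.0637 and 0.0737 in that order; single cohorts have fewer samples, and otherwise the cause was not tested. Its difference stayed between −0.099 and −0.071 throughout, and DESeq2 kept the call (adjusted p = 0.0298). The Odc1 genotype difference stayed between 0.32 and 0.35. The log2 difference of Azin1 per 100 of Oaz1 was 0.11 in cohort 1 alone, past no threshold (permutation p = 0.119). For diet and for sex 0 members were called under every alternative run. Calls over all genes ran from 0 to 19 for diet and from 17 to 254 for sex. No called value changed sign. No paired analysis was possible because the replicate numbers run through all libraries and no 2 groups share one. Srm is the least counted member, at 11 to 55 counts per library, and how far depth limits it was not tested.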
